A study of Homo sapiens with 20 samples.

Results

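Peaks of ac4C RNA immunoprecipitation that fall on non-coding transcripts are described here for K562, a human chronic myeloid leukaemia line with erythroid and megakaryocytic potential. A peak was taken when the annotation in its transcript name gave the biotype lncRNA (long non-coding RNA) or processed_transcript (an annotated transcript without an open reading frame). Of 495936 peaks in 4 lists, 66414 met this rule, and they lay on transcripts of 9358 genes. The 4 lists were made from parental K562 cells (wild type) and from K562 cells in which CRISPR-Cas9 was directed at exon 5 of NAT10 (knockout), each precipitated with an anti-ac4C antibody (IP) or with normal rabbit IgG. Each list was called on 2 pooled libraries of 1 antibody and 1 genotype, so there is 1 list per condition and no replicate spread behind any peak value. RNA-seq counts of the same genotypes, 2 libraries each, were used to give the RNA level of the peak-bearing genes. All groups share the K562 background, grown in the same medium without added treatment. The labels name no clone, culture or sequencing batch, and the knockout acRIP libraries were registered separately from the wild type ones. Knockout and library set therefore cannot be told apart in the peak lists.

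N4-acetylcytidine (ac4C) is a cytidine modification made in human cells by NAT10, which acetylates 18S ribosomal RNA and tRNA and has been reported to act on messenger RNA. The antibody is meant to retain RNA fragments that carry ac4C, whereas IgG measures what stays on the beads without that recognition. Long non-coding RNAs include nuclear scaffolds such as MALAT1 and NEAT1, imprinted transcripts such as MEG3 and KCNQ1OT1, and host transcripts whose introns are processed into small nucleolar RNAs (snoRNAs) or microRNAs.

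NAT10 was lower in each knockout RNA-seq library, at 49.9 and 49.3 CPM (counts scaled to the library total) against 139 and 144 CPM in wild type. The difference was -1.51 on the log2 scale (SE 0.085, adjusted p = 0.0001, edgeR quasi-likelihood test). Total counts per library were 10388717 to 18778485, and the 9 K562 markers examined were each detected, at 2.20 to 392 CPM. The 6 markers of other cell types lay between 0 and 49.0 CPM, with EPCAM the highest and MS4A1 at 0 in all libraries. The 2 knockout RNA-seq libraries differed by little more than counting noise (chi-square 1.03 per degree of freedom, against 12.5 for the wild type pair) and were summed and counted as 1 sample.

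The enrichment printed for each peak is the authors' fold over background. In each list 100% of the values were whole multiples of 1 constant, within 0.05 of a step, and each value had exactly 1 p-value. This is what 1 background value per list, in place of a local one, would give. The step was 0.0309 in the wild type IP list, 0.0330 in wild type IgG, 0.1043 in knockout IP and 0.1423 in knockout IgG. The median peak on a lncRNA or processed transcript stood at 126, 116, 50 and 40 steps in the same order. Enrichments set side by side across lists therefore rest on different constants, and the knockout values rest on coarser steps.

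The wild type IP list held 8271 of these peaks, 8.97% of its 92194, and the wild type IgG list held 8528, 9.14% of 93329. The knockout IP list held 25443, 15.6% of 162944, and the knockout IgG list 24172, 16.4% of 147469. Both knockout lists thus held about the same number, and both exceeded both wild type lists. The increase lay mostly on lncRNAs, which had 2934 and 3140 peaks in wild type IP and IgG and 15206 and 15057 in knockout IP and IgG. Processed transcripts went from 5337 and 5388 peaks to 10237 and 9115. Counted as genes, lncRNAs numbered 976 and 1046 in wild type and 4790 and 4671 in knockout, and processed transcripts 2150, 2166, 3429 and 3216. Some peaks are sub-summits of 1 called region, with 1.4 to 1.5 rows per region in each list.

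**Figure D1:**
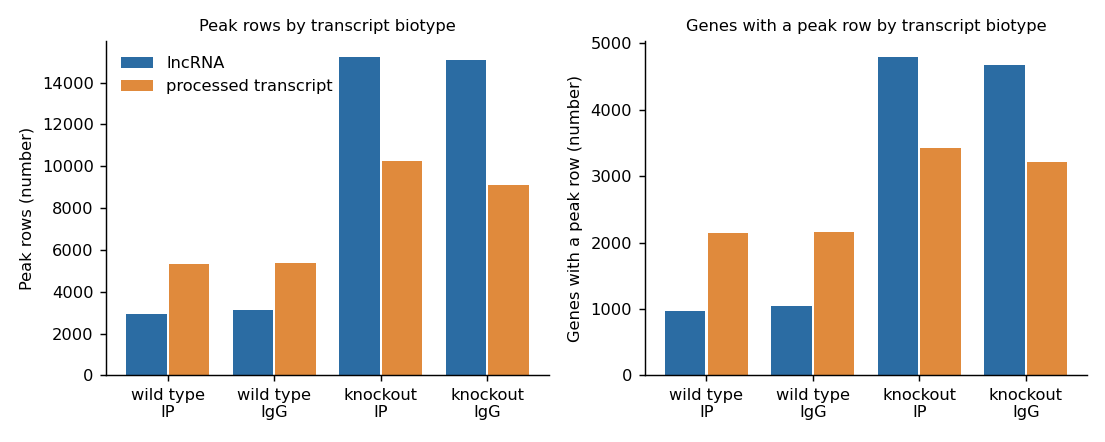
Number of peak rows (left panel) and of genes with a peak row (right panel) in each of the 4 lists, with lncRNA in blue and processed transcripts in orange. The IP and IgG bars of a genotype are nearly level, and the lncRNA bars rise from 2934 and 3140 rows in wild type to 15206 and 15057 in knockout.

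The comparison of IP with IgG asks how many of these peaks the anti-ac4C antibody gave that the control antibody did not. In wild type, 7891 of 8271 IP peaks (95.4%, Wilson 95% interval 94.9 to 95.8) shared at least 1 base with an IgG peak on the same transcript. The 380 peaks without an IgG counterpart made up 4.59%, against 3.63% of all peaks in that list. Conversely, 535 wild type IgG peaks (6.27%, against 3.46% of all) had no IP counterpart. In the knockout, 22506 of 25443 IP peaks (88.5%, interval 88.1 to 88.8) were overlapped by IgG, and 2937 (11.5%) were not, against 11.7% of all peaks. In the other direction 2031 knockout IgG peaks (8.40%, against 7.09% of all) lacked an IP peak. The intervals cover counting error only, and isoforms of 1 gene repeat the same reads, so these peaks are not independent. Both genotypes thus had IgG peaks under most IP peaks, and the share without one was near that of all transcripts in knockout and somewhat above it in wild type.

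Peaks without a counterpart were weak. In wild type their median enrichment was 2.33 against 4.05 for overlapped IP peaks, and in the knockout 3.13 against 5.73. At the level of genes, 150 of 3126 genes (4.80%) had a wild type IP peak and no wild type IgG peak, against 2.23% of genes over all biotypes. The reverse held for 236 of 3212 genes (7.35%, against 4.56%). In the knockout 868 of 8219 genes (10.6%, against 6.73%) had only the IP peak and 536 of 7887 (6.80%, against 3.99%) only the IgG peak. These shares exceeded the all-biotype ones in both directions. Here only peaks on lncRNAs and processed transcripts count, whereas the all-biotype share lets a peak on any isoform of the gene serve as the counterpart.

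The strongest wild type genes with an IP peak and no IgG peak were isoforms of protein-coding genes. PDIA3, a protein disulfide isomerase of the endoplasmic reticulum, had the highest at 8.07, followed by EPRS1, the glutamyl-prolyl-tRNA synthetase, at 4.88 and ATP6V0D1, a subunit of the vacuolar proton pump, at 4.17. In the reverse direction SNHG9 had a wild type IgG peak at 9.27 and TCEA2 one at 5.15, with no IP peak. In the knockout, Z93241.1 (19.8), MICAL3 (12.5) and AL133330.1 (12.2) had the highest enrichments in IP without IgG, and LINC00273 (37.6), RPL26 (18.5) and HRAT17 (13.9) in IgG without IP. No gene of the 6 named from the wild type IP list was also among the 6 named from the knockout IP list. ATP6V0D1 (3.23) and NFATC2IP (4.90), 2 of the wild type 6, nonetheless had a knockout IP peak and no knockout IgG peak.

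Where the summits of IP and IgG lay within 100 bases of each other, their heights were close. In wild type 7163 such pairs had a median log2 ratio of IP over IgG of -0.01, and the central 80% of ratios ran from -0.28 to 0.24. IP exceeded IgG by at least 1.5 times at 17 of them (0.237%, against 0.344% of all peaks), and IgG exceeded IP at 33 (0.461%, against 0.414%). In the knockout 19908 pairs had a median of -0.06, with 1029 (5.17%, against 8.74% of all) at least 1.5 times higher in IP and 1867 (9.38%, against 7.85%) at least 1.5 times higher in IgG. Against the highest IgG peak that each IP peak overlapped, the measure set for this comparison, the medians were -0.11 over 7891 wild type peaks and -0.23 over 22506 knockout peaks. That measure sets lower summits of an IP region against the top of an IgG region and so lies lower, and the nearest summit was added after the values were seen. By nearest summit, the scatter around equality was wider in the knockout, where a step of the enrichment scale is larger, and more peaks leaned to IgG than to IP.

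The largest single differences were all in the knockout lists. AC092720.1, a lncRNA, stood at 273 in IP and 19.9 in IgG, a log2 ratio of 3.78. AL008636.1 stood at 47.1 and 4.13, AC020907.1 at 149 and 14.2, and FAM169B, on a processed transcript, at 50.8 and 4.98. On the IgG side BGLT3, a lncRNA encoded next to the fetal globin genes, stood at 62.9 in IP and 804 in IgG, a log2 ratio of -3.68. MIR663AHG followed at 9.49 in IP and 72.5 in IgG, and ANKRD30BL stood at 20.3 and 138. FP671120.7, an annotated lncRNA, stood at 118 in IP and 672 in IgG. Its 923-base relatives FP236383.4, FP236383.5 and FP671120.6 had knockout maxima of 157 to 159 in IP and 707 to 719 in IgG, whereas in wild type these 3 stood at 56.9 to 58.1 and 52.3 to 53.2. The 4 FP transcripts share a length and similar values, and whether they share reads was not tested. In wild type the largest IP excess at an enrichment of 10 or more was HSPB1, a small heat shock protein gene, at 14.0 in IP and 9.50 in IgG.

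**Figure D2:**
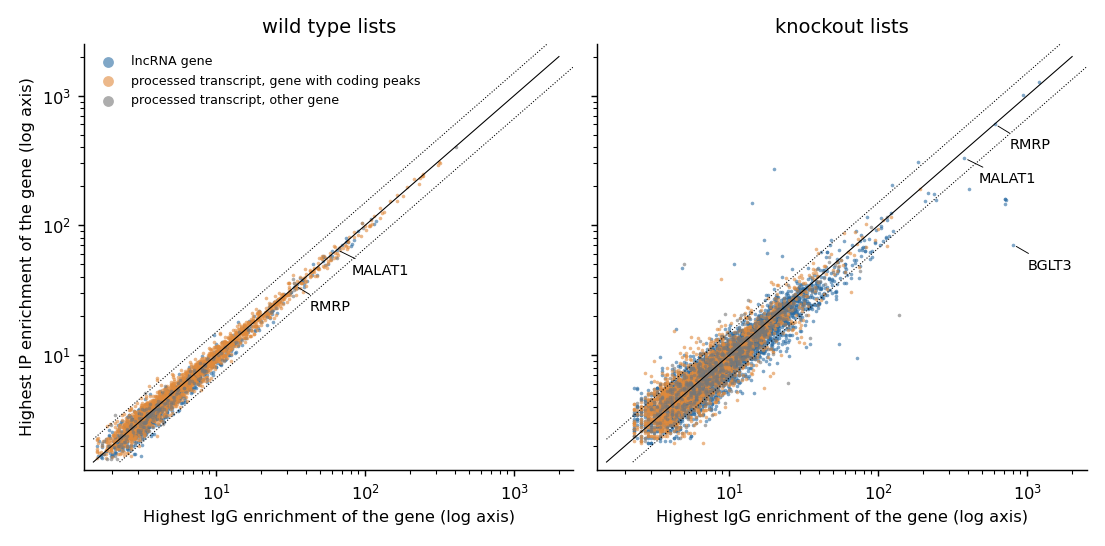
Highest enrichment of each gene in the IP list (vertical, log axis) against its highest in the IgG list (horizontal, log axis) for wild type (left) and knockout (right), 1 point per gene with a row in both. The solid line marks equality and the dotted lines 1.5 times either way; wild type genes hug the line, and BGLT3 lies far below it in the knockout at 71.1 against 804.

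Median summit positions were close in all 4 lists, and the distribution along the transcript differed between genotypes more than between antibodies. In wild type IP the median summit lay 55.1% of the way from the 5′ end, and in wild type IgG 56.2%, knockout IP 56.0% and knockout IgG 57.8%. On processed transcripts, wild type summits gathered in the part 3′ of the middle: the fourth 20% of the transcript held 32.7% of IP and 33.6% of IgG summits, and the first 20% held 7.21% and 6.89%. The knockout lists were more even there, with 24.97% and 25.7% in the fourth 20% and 13.8% and 12.0% in the first. On lncRNAs the last 20% held 16.6% and 17.7% of summits in wild type and 23.8% and 24.9% in the knockout.

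Called regions were also shorter in the knockout, with a median width of 270 bases in IP and 262 in IgG against 452 and 443 in wild type. Over all peaks the medians were 306 and 296 bases against 632 and 623, so the shortening was not particular to these biotypes. The shortest region was 140 and 135 bases in the knockout lists and 236 and 233 bases in wild type, so the smallest length that could be called differed too. A region covered a median of 51.5% of its transcript in wild type IP and 18.0% in knockout IP, with 51.0% and 16.3% for IgG. Summits within 100 bases of the 3′ end made up 0.242% of wild type IP peaks and 5.77% of knockout IP peaks. Over all peaks these shares were 0.078% and 2.81%. At the 5′ end the shares were 0.048% and 2.18%, against 0.011% and 1.44% of all peaks. Regions that ended past the transcript numbered 26 of 5745 in wild type IP and 1311 of 16751 in knockout IP. Over all peaks they numbered 158 of 45290 and 3105 of 80709. The part of region length in the position difference was not tested.

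**Figure D3:**
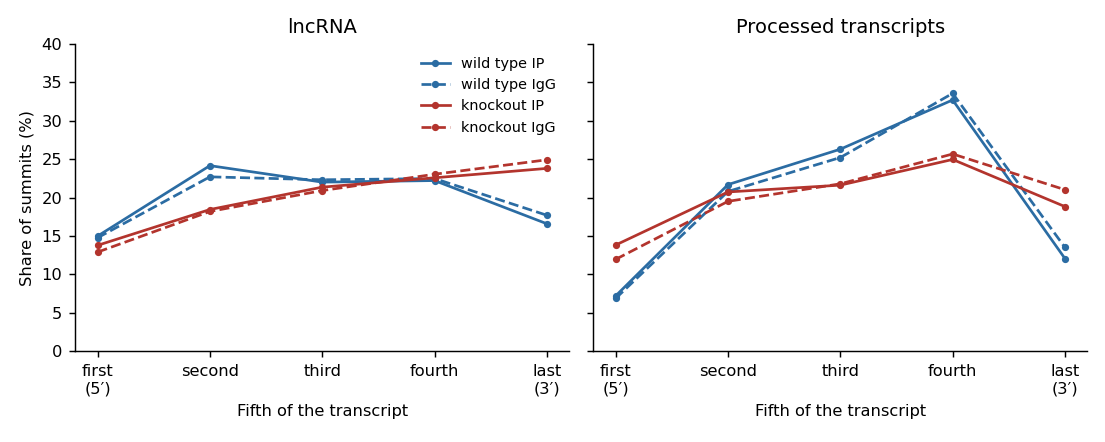
Share of summits (percent, vertical) in each 20% of the transcript from 5′ to 3′ (horizontal) for lncRNAs (left) and processed transcripts (right); wild type in blue, knockout in red, IP solid and IgG dashed. The IP and IgG lines of a genotype run together, and wild type summits on processed transcripts peak at 32.7% and 33.6% in the fourth part.

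The comparison of the IP lists between genotypes asks which peaks were present in 1 genotype only. Of wild type IP peaks, 71.8% (interval 70.8 to 72.8) were overlapped by a knockout IP peak, and 2331 (28.2%, against 23.2% of all peaks) were not. Of knockout IP peaks, 35.1% (interval 34.5 to 35.7) were overlapped by a wild type IP peak, and 16519 (64.9%, against 35.8% of all) were not. With an overlap of at least 50% of both peaks the shares overlapped fell to 47.3% and 23.5%, and with summits within 100 bases they were 52.0% and 17.5%. At 1 shared base the IgG lists gave nearly the same figures as IP: 32.0% of wild type peaks (against 27.4% of all) and 65.6% of knockout peaks (against 36.7%) had no counterpart in the other genotype. On lncRNAs only 23.6% of knockout IP peaks met a wild type IP peak, and on processed transcripts 52.2%. With IgG these shares were 23.5% and 52.5%. The unmatched knockout IP peaks were as high as the matched ones, with median enrichments of 5.32 and 5.21, whereas unmatched wild type IP peaks were lower, at 3.03 against 4.51.

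By gene, 621 of 3126 (19.9%, against 8.59% over all biotypes) had a peak in wild type IP and none in knockout IP. As above, only peaks on lncRNAs and processed transcripts count, whereas the all-biotype share takes a peak on any isoform. In the other direction 5714 of 8219 genes (69.5%, against 51.7%) had a knockout IP peak and no wild type IP peak, and for lncRNA genes alone 3950 of 4790 (82.5%). The IgG lists gave 760 of 3212 genes (23.7%, against 11.8%) and 5435 of 7887 (68.9%, against 50.8%). All 4 lists shared 2223 genes. Both knockout lists and neither wild type list held 4918 genes, whereas 635 were found only in knockout IP and 58 only in wild type IP. Most genes gained in the knockout IP list were thus also present in knockout IgG.

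Relative to all peaks, enrichment at shared positions was higher in the knockout on lncRNAs, whereas processed transcripts lay near the all-peak values. The lists rest on different constants, so the sign of a ratio between genotypes has no fixed zero. At 1599 lncRNA summits within 100 bases in both IP lists, the median log2 ratio of knockout over wild type was 0.86, and 903 (56.5%) were at least 1.5 times higher in the knockout. At 2704 summits on processed transcripts the median was -0.22, and 1013 (37.5%) were at least 1.5 times higher in wild type. Over all peaks the median was -0.13, with 25.9% higher in the knockout and 35.0% higher in wild type. IgG summits showed the same split, with medians of 0.93 on lncRNAs and -0.24 on processed transcripts, and 58.9% of lncRNA summits at least 1.5 times higher in the knockout against 27.7% of all (17.4% higher in wild type against 35.5%). The size and direction of the lncRNA difference were therefore present without the ac4C antibody.

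**Figure D4:**
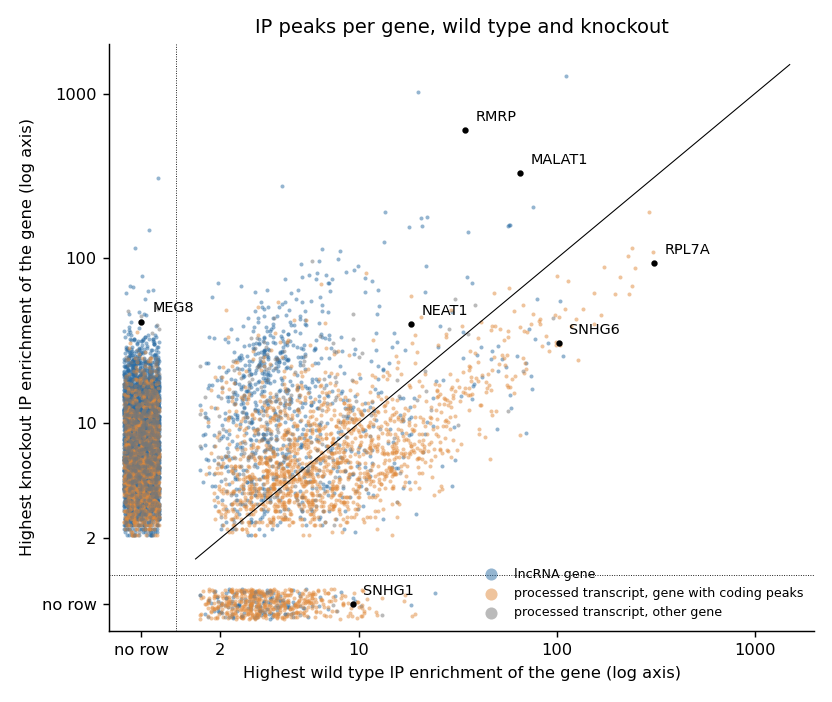
Highest IP enrichment of each gene in knockout (vertical, log axis) against wild type (horizontal, log axis), with genes lacking a row in 1 list spread at random in the strips marked "no row". Blue lncRNA genes crowd above the line of equality and in the left strip; orange processed transcripts with high wild type values, such as RPL7A at 309 and 93.7, lie below it.

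Among 14 nuclear and regulatory lncRNAs from a list, 9 had peaks in wild type IP, 11 in wild type IgG, 13 in knockout IP and 14 in knockout IgG. Of the 9 present in both IP lists, 7 were higher in the knockout; over all genes in both IP lists the split was 1468 higher in the knockout and 1037 higher in wild type. MALAT1, an abundant nuclear speckle RNA, reached 65.1 in wild type IP and 64.6 in IgG, and 330 and 379 in knockout IP and IgG. Its 8708-base transcript was covered from base 1295 to base 8701 in both wild type lists. NORAD, a cytoplasmic RNA that binds Pumilio proteins, reached 21.5 and 23.0 in wild type and 62.6 and 41.0 in knockout, and was covered over 98.5% to 98.6% of its length in every list. MEG3, an imprinted RNA, reached 37.4, 40.5, 71.0 and 47.4 in the 4 lists and had 91, 92, 296 and 268 peaks over 39 to 45 isoforms. CYTOR and HOTAIRM1 ran the other way. CYTOR reached 58.5 and 60.3 in wild type and 12.4 and 11.7 in knockout, and HOTAIRM1, a myeloid RNA of the HOXA cluster, 29.5 and 31.0 against 4.17 and 3.13.

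NEAT1, the architectural RNA of paraspeckles, showed a change of extent rather than of height alone. On its 22743-base isoform the wild type IP list held 1 region from base 82 to base 3701, with 6 summits. Wild type IgG held a region from base 93 to base 3705 and a short one between bases 17109 and 17474. In the knockout IP list 1 region ran from base 131 to base 22615 with 77 summits, and in knockout IgG 2 regions covered 96.3% of the transcript. Coverage of the second to the last 20% was thus 0% in wild type IP and 97.2% to 100% in knockout IP. The highest enrichment was 18.3 and 17.6 in wild type IP and IgG and 40.1 and 41.4 in the knockout. NEAT1 RNA stood at 522 and 535 CPM in the knockout and 400.0 and 347 CPM in wild type, a rise of 0.51 on the log2 scale (SE 0.096, adjusted p = 0.012).

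Very long transcripts were peak-rich in the knockout lists. KCNQ1OT1, the imprinted antisense RNA that silences CDKN1C and its imprinted neighbours, had 8 peaks in each wild type list and 106 and 94 in knockout IP and IgG, with maxima of 6.27 and 7.52 against 96.0 and 105. In all 4 lists its highest summit lay at 69.2% to 69.3% of the 91667-base transcript. HELLPAR (205012 bases) had 17 and 20 peaks in wild type and 161 and 175 in knockout. XACT, an RNA that coats the active X chromosome in pluripotent cells, is annotated at 347561 bases and had 16 and 21 peaks in wild type and 302 and 303 in knockout. Its highest summit lay at 79.2% of the length in each list. XACT RNA stood at 42.1 and 44.7 CPM in the knockout and 13.8 and 12.7 CPM in wild type, a rise of 1.72 (SE 0.12, adjusted p = 0.00024). Transcripts of at least 10000 bases held 1.48% of wild type IP peaks and 5.27% of knockout IP peaks. Over peaks of all biotypes the shares were 1.80% and 6.17%.

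**Figure D5:**
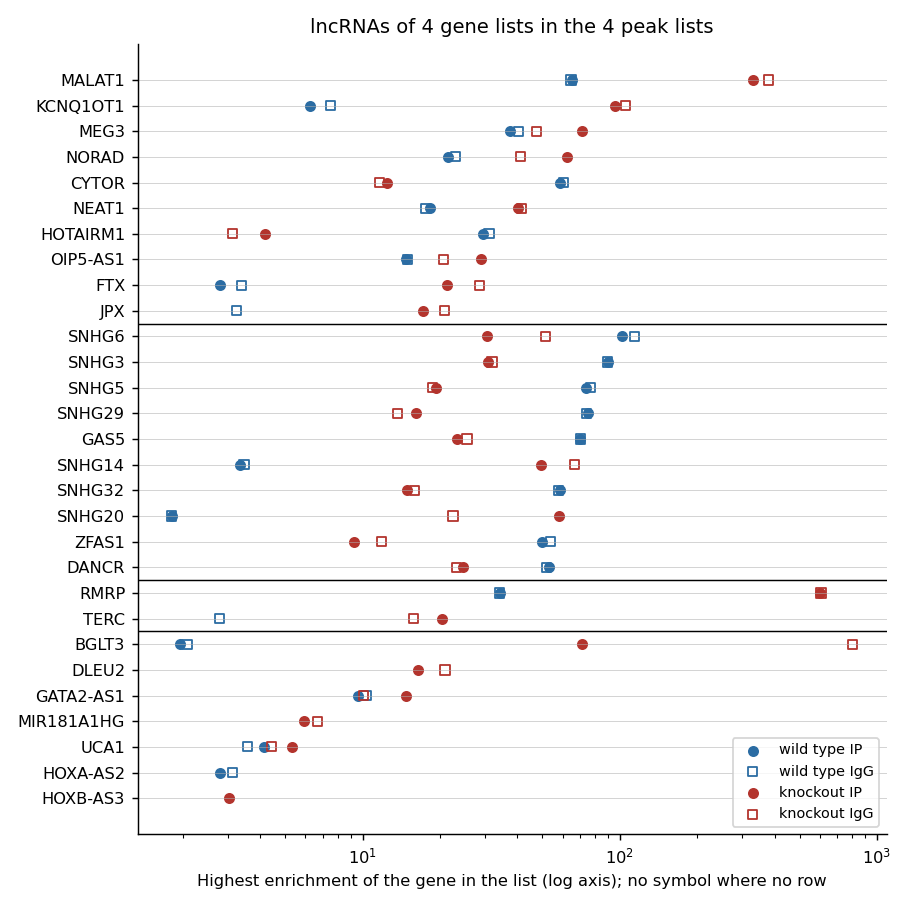
Highest enrichment (log axis) in wild type IP (filled blue circle), wild type IgG (open blue square), knockout IP (filled red circle) and knockout IgG (open red square) for up to 10 lncRNAs of each of 4 gene lists, divided by lines. The IP and IgG symbols of a genotype sit close together for most genes; MALAT1, KCNQ1OT1 and RMRP are higher in the knockout, and SNHG6, SNHG3, SNHG5, SNHG29 and GAS5 in wild type.

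The snoRNA hosts split by gene. Peaks lay on 25 and 26 of 31 hosts in wild type IP and IgG and on 28 and 29 in the knockout. Of the 23 present in both IP lists, 14 were higher in wild type and 9 in the knockout, against 1037 and 1468 over all genes in both. SNHG6 reached 102 and 114 in wild type IP and IgG and 30.6 and 51.4 in the knockout. SNHG3 reached 90.4 and 89.9 against 30.7 and 31.9, SNHG29 75.0 and 74.4 against 16.2 and 13.7, SNHG5 74.0 and 76.7 against 19.3 and 18.6, and GAS5, a growth-arrest RNA that hosts box C/D snoRNAs, 70.0 and 70.3 against 23.3 and 25.5. In the opposite direction SNHG14, the long imprinted host of the SNORD115 and SNORD116 clusters, reached 3.34 and 3.46 in wild type and 49.3 and 66.5 in the knockout, and SNHG20 1.82 and 1.81 against 58.0 and 22.5.

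A few hosts had peaks wholly or almost wholly in 1 genotype. SNHG1 had 56 and 57 peaks on 39 isoforms in the wild type IP and IgG lists, with maxima of 9.30 and 9.53. It had none in knockout IP and 1, at 3.42, in knockout IgG. Its RNA was nonetheless level, at 184 and 181 CPM in the knockout and 183 and 207 CPM in wild type (log2 difference -0.10, SE 0.11, adjusted p = 0.60, edgeR). MEG8 was the reverse. It had no peak in either wild type list and 121 and 139 in knockout IP and IgG, with maxima of 41.4 and 36.9, while its RNA was 243 and 253 CPM in the knockout and 197 and 191 CPM in wild type, a rise of 0.36 (SE 0.076, adjusted p = 0.019, edgeR). SNHG17, singled out after its values were seen, likewise had 0 wild type peaks and 31 and 28 in the knockout at 85.2 to 112 CPM in the RNA-seq libraries. The missing IP peaks of SNHG1 in the knockout and of MEG8 in wild type were thus not matched by an absence of RNA, and IgG differed from IP by the 1 SNHG1 peak. Each transcript identifier had 1 length, 1 biotype and 1 symbol across all 4 lists.

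RMRP, the RNA of the mitochondrial RNA processing ribonuclease, had 1 peak spanning nearly all its 268 bases in each list. In the knockout lists the called region ran past the transcript end, to base 289 in IP and 318 in IgG. The peak stood at 34.3 in wild type IP and 34.0 in IgG, and at 602 and 606 in knockout IP and IgG. RMRP had 0 counts in all RNA-seq libraries, so its RNA level was not measured by that table. TERC, the telomerase template RNA, had no peak in wild type IP, 2.77 in wild type IgG, and 20.3 and 15.8 in knockout IP and IgG. The highest lncRNA peaks of the series, picked out after their values were seen, lay on AL627171.2 (112 and 109 in wild type, 1274 and 1206 in knockout) and AL355075.4 (20.0 and 17.9 against 1016 and 938). RNA-seq gave these genes at most 1.70 and 0.0786 CPM in any library.

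Of 7 lncRNAs on a list of blood lineage genes with any peak, 4 had peaks in each wild type list, 6 in knockout IP and 5 in knockout IgG, with 52, 51, 31 and 28 peaks in wild type IP, wild type IgG, knockout IP and knockout IgG. Most wild type ones lay on 1 gene. UCA1, a lncRNA known from bladder cancer, had 40 and 39 wild type peaks against 4 and 2 in the knockout, and its RNA was 53.4 and 53.2 CPM against 73.5 and 83.6 CPM, a fall of 0.56 (SE 0.11, adjusted p = 0.013, edgeR). GATA2-AS1, antisense to the GATA2 regulator, stood at 9.58, 10.3, 14.7 and 10.1 in wild type IP, wild type IgG, knockout IP and knockout IgG. HOXA-AS2 had peaks only in wild type (2.78 and 3.13), and DLEU2 only in the knockout (16.5 and 20.9). BGLT3, described above for its excess in IgG, stood at 1.95 and 2.08 in wild type and had 0 to 0.387 CPM in RNA-seq. Reads of BGLT3 and of neighbouring globin genes could not be told apart here, because the strand and multimapping settings are not given in the sources used. Of the globin genes on a list, HBM alone had a processed transcript with peaks, and only in the knockout (6.26 and 5.12). HBBP1, the beta-like globin pseudogene, was not on that list and had peaks only in wild type (13.1 and 15.0).

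Antisense and intergenic lncRNAs had peaks on more genes in the knockout lists than in the wild type ones, as did the peak-bearing genes as a whole (3126 and 3212 of 9358 in wild type IP and IgG, 8219 and 7887 in knockout). Of 574 antisense symbols, 155 and 164 had peaks in wild type IP and IgG and 530 and 500 in knockout, with median enrichments of 2.87 and 2.89 against 5.53 and 5.98. Of 714 LINC symbols, 112 and 114 had peaks in wild type and 666 and 657 in knockout, with medians of 3.34 and 3.45 against 5.63 and 6.26. LINC00630 reached 8.65 and 9.40 in wild type and 82.6 and 118 in knockout, and NNT-AS1 9.52 and 10.1 against 84.8 and 76.0. MicroRNA hosts numbered 13 and 14 of 38 in wild type and 35 and 33 in knockout, shares close to those of all 9358 genes. MIR4435-2HG was an exception in height, at 55.3 and 59.1 in wild type and 21.8 and 20.1 in knockout, whereas MIR223HG, host of the myeloid miR-223, stayed at 33.4 and 33.2 against 36.0 and 28.6.

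Many high lncRNA peaks of the knockout lists had almost no RNA-seq counterpart. LINC01297 reached 111 in knockout IP and 115 in IgG with at most 0.0963 CPM in any RNA-seq library, and CLEC12A-AS1 reached 90.5 and 70.7 with at most 0.0533 CPM. Among genes with an enrichment of at least 50, 43 of 100 in knockout IP and 61 of 119 in knockout IgG were under 1 CPM in all RNA-seq libraries, against 9 of 89 in wild type IP and 9 of 91 in wild type IgG. Over all genes of each list that share was 50.2% and 51.4% in the knockout and 14.2% and 14.9% in wild type. The highest knockout peaks were thus no richer in low-RNA genes than the rest of those lists, and IgG resembled IP.

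RNA level per kilobase was taken as the CPM of the whole gene over the length of its longest lncRNA or processed transcript with a peak. Where other isoforms of the gene add counts, it is not the level of that transcript. Across genes, the highest enrichment and this level had a Spearman correlation of 0.34 in wild type IP (2979 genes) and 0.33 in wild type IgG (3064 genes). In the knockout the values were -0.18 (6667 genes) and -0.20 (6350 genes). Within lncRNA genes they were 0.20 and 0.21 in wild type and -0.06 and -0.05 in knockout. For processed transcripts of genes with protein-coding peaks they were 0.35 and 0.34 in wild type and 0.02 and -0.01 in knockout. The negative values over all knockout genes were thus not seen at that size within either class. Genes within a library are not independent, and each point shares its libraries with all others.

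Processed transcripts came mostly from protein-coding genes. Of 2150 such genes in wild type IP, 1942 had peaks on protein-coding isoforms in at least 1 of the 4 lists. The same reads can support both. The highest processed transcript peak of both wild type lists, picked out after its value was seen, lay on AC104389.5, at 399 in IP and 408 in IgG, against 116 and 114 in the knockout. That gene had no peak on a protein-coding isoform in any list, and its RNA-seq level was 0.11 to 0.29 CPM. Ribosomal protein genes made up 22 of the 89 genes with an enrichment of at least 50 in wild type IP and 15 of 100 in knockout IP. With a peak of any height they numbered 33 of 53 in each wild type list and 49 in each knockout list, with a median enrichment of 61.5 and 52.8 in wild type IP and IgG and 22.4 and 22.6 in the knockout. Of 31 in both IP lists, 25 were higher in wild type, against 1037 of the 2505 peak-bearing genes in both. Of 31 in both IgG lists, 24 were higher in wild type, and that split was not made over all genes. RPL7A reached 309 and 311 in wild type and 93.7 and 98.9 in knockout, and RPL41 293 and 310 against 190.1 and 192. Genes whose symbols start with EIF or EEF, taken by name and not by function, showed no common direction. EEF1G, EIF1 and EIF4EBP1 were higher in wild type, with EIF1 at 81.3 and 84.3 against 41.8 and 34.3. EEF2, the translocase of elongation, was at 18.3 and 17.0 against 59.5 and 69.2. EEF1G had 0 counts in all RNA-seq libraries.

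The genes with the highest wild type IP peaks, no knockout IP peak and at least 1 CPM throughout were ZNF232-AS1, MKKS, ARF4, AL118516.1, LAMTOR1, DGUOK, FUNDC2 and HBBP1. Only peaks on lncRNAs and processed transcripts count here, whereas the CPM covers the whole gene. Knockout peaks on other isoforms of these genes were not looked at. ZNF232-AS1, antisense to a zinc finger gene, stood at 24.2 and 24.7 in wild type IP and IgG. Its RNA was 16.9 and 16.8 CPM in the knockout and 8.57 and 6.60 CPM in wild type, a rise of 1.16 (SE 0.185, adjusted p = 0.0062, edgeR), so peaks were missing where the RNA was higher. MKKS, a chaperonin-like gene, stood at 19.2 and 17.7, and ARF4, a Golgi GTPase, at 18.5 and 18.8. Of these 8 genes, 1 (LAMTOR1, at 4.41) had a peak in knockout IgG and ZNF232-AS1 alone passed the RNA test. In the reverse direction the highest were AC007952.4 (116 in knockout IP and 83.8 in knockout IgG), LINC00342 (64.2 and 74.2) and TMEM182 (49.4 and 51.5). None of these 3 had a peak in either wild type list, and their RNA did not pass the test (adjusted p from 0.15 to 0.71, edgeR).

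RNA of the peak-bearing genes was tested in the fit across all 16277 expressed genes, with 1 summed knockout sample against 2 wild type libraries. Nothing in the labels says that the libraries came from separate cultures, so any p-value here speaks for these libraries and their spread, which may be technical. Of 9358 genes with a peak, 5011 passed the filter on low counts; 305 of these rose (6.09%, against 5.17% of all genes) and 413 fell (8.24%, against 8.79%), with a median log2 difference of 0.04. These counts depended on the fit. With the 4 libraries kept apart 941 rose and 836 fell, against 2423 and 3053 over all genes, so in that fit the balance turned for the peak-bearing genes only. That fit counts the knockout libraries as separate samples although they differed by little more than counting noise, so its calls are too many. With no filter on low counts, rises outnumbered falls among the peak-bearing genes and over all genes alike. With DESeq2, falls outnumbered rises in both. Among lncRNA genes 1483 of 5250 could be tested; 69 rose (4.65%) and 36 fell (2.43%), with a median of 0.16 against 0.00 over all genes. Of 621 genes with a wild type but no knockout IP peak, 571 were tested, 29 rose (5.08%) and 59 fell (10.3%). Of 5714 genes with a knockout but no wild type IP peak, 2079 were tested, 90 rose (4.33%) and 139 fell (6.69%), and their median RNA level was 0.13 CPM in wild type and 0.11 CPM in knockout. The shares in these groups with peaks in 1 IP list lay near the all-gene ones. Genes with a knockout but no wild type IP peak had no higher median RNA level in the knockout.

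Over all 16277 genes 5.17% rose and 8.79% fell, and at an unadjusted p under 0.05 the counts were 2070 and 2642. Of the 14 nuclear and regulatory lncRNAs, each tested, 3 rose and 0 fell, with a median log2 difference of 0.33 (edgeR). At an unadjusted p under 0.05, 7 rose and 0 fell, and with DESeq2 4 rose and 0 fell. MALAT1 stood at 4037 and 4054 CPM in the knockout and 3036 and 2765 CPM in wild type, a rise of 0.48 (SE 0.097, adjusted p = 0.016). The others were NEAT1 and OIP5-AS1 (252 and 252 CPM against 186 and 204 CPM, a rise of 0.37, SE 0.097, adjusted p = 0.042). Of 30 tested snoRNA hosts 3 rose and 4 fell, among them SNHG5 at 268 and 273 CPM against 371 and 401 CPM, a fall of 0.51 (SE 0.10, adjusted p = 0.016). The 47 tested ribosomal protein genes with a peak had a median of -0.23 (edgeR). At the adjusted threshold their share of falls was close to that of all genes, whereas unadjusted and with DESeq2 it was above it. With the 4 libraries kept apart 1 rose and 21 fell, against 2423 and 3053 of 16040 genes. Of the ribosomal protein genes, RPL3 stood at 1001 and 997 CPM against 1619 and 1757 CPM, a fall of 0.76 (SE 0.12).

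Among the peak-bearing genes with the smallest adjusted p in RNA, some had peaks that moved with the RNA and others did not. Peaks on other isoforms of these genes are not counted, whereas the CPM covers the whole gene. ANXA1, a phospholipid-binding annexin, rose by 1.41 (SE 0.069, adjusted p = 6e-05, edgeR), from 95.1 and 88.6 CPM to 247 and 239 CPM, while its processed transcript stood at 24.7 and 24.5 in wild type and 12.0 and 12.1 in knockout. NAV1, a microtubule-associated gene, fell by 2.29 (SE 0.093, adjusted p = 3e-05, edgeR), from 133 and 140 CPM to 28.3 and 27.5 CPM, yet had peaks only in the knockout lists (22.0 and 30.6). ARHGDIB, a gene of blood cells, fell by 2.81 (SE 0.11, adjusted p = 2e-05, edgeR), from 90.2 and 95.6 CPM to 13.9 and 12.6 CPM. Its wild type peaks at 6.12 and 6.56 had no counterpart in the knockout lists. AC097528.1, a lncRNA, rose by 1.93 (SE 0.18, adjusted p = 0.00071, edgeR), from 4.72 and 4.24 CPM to 17.4 and 16.7 CPM, and its peaks stood at 2.50 and 2.54 in wild type and 9.91 and 9.39 in knockout.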

How the data were processed

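Per the labels' protocols, acRIP-seq used rRNA-depleted RNA in fragments of about 100 nt, although the labels also call the molecule of the IP and IgG libraries polyA RNA. RNA-seq used total RNA per the labels; poly(A) selection is stated for neither protocol. The authors deposited 4 peak lists in MACS2 format, in transcript coordinates, with replicates pooled; per the file headers each name carries a GENCODE transcript, gene, length and biotype. The deposited fold enrichment (ratio), -log10 p and -log10 q were made by the authors with MACS2 on merged libraries, per the file headers and the submitters' processing notes. The deposited peak score is 10 times -log10 p, and the summit is an offset in bases made by the authors' peak caller. All deposited peaks had -log10 p above 3. RNA-seq values are the deposited whole-number counts per gene, made from alignments without duplicates per the file headers. The submitters' processing notes name cutadapt, Trimmomatic, Bowtie2, STAR, SAMtools, featureCounts, MACS2, bedtools, ChIPseeker, DESeq2 and GRCh38.p13, without roles or versions. Transcript coordinates were counted from 1. No genome positions or sequences were used here.

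Peaks were matched within a transcript by at least 1 shared base, and heights by summits within 100 bases. Peak lists have no replicates, so no test was made on them. RNA counts were fitted with edgeR 4.0.16 in R 4.3.3 (TMM, filterByExpr, quasi-likelihood F test, Benjamini-Hochberg adjustment over all tested genes, threshold 0.05). The knockout pair was summed, which left 1 residual degree of freedom and took the knockout spread from wild type. The fit was tested on simulated data in which the knockout sample varied like wild type, which leaves the assumed knockout spread untested. CPM is the count over the library total. Of 9358 genes, 9352 were in the count table; copies on the Y pseudoautosomal region were not.

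Named genes were up to 5 per gene list by highest enrichment, 6 per genotype and direction with an IP or IgG peak alone at -log10 q of at least 5, the 5 with the most peaks per list, 8 per direction present in 1 IP list and expressed, and the 5 rises and 5 falls of smallest adjusted p. The members, lists and rules were chosen with earlier results of these data known. Ribosome profiling and acRIP input libraries were not used here, and some genes that the rules named are not reported here. Matching rules, thresholds, biotypes, isoform choice, scaling, DESeq2 1.42.0, a replicate block and leaving out libraries were varied.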

Additional observations from a re-analysis of the deposited data

How the results depend on the processing

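Overlap with the other list depended on how a match was defined. The shares below are given for wild type IP in wild type IgG, knockout IP in knockout IgG, wild type IP in knockout IP, knockout IP in wild type IP, wild type IgG in knockout IgG and knockout IgG in wild type IgG. An overlap of at least 50% of both peaks gave 91.6%, 78.3%, 47.3%, 23.5%, 40.5% and 21.5%. With summits within 100 bases, a choice made after seeing the data, they were 86.6%, 78.2%, 52.0%, 17.5%, 48.4% and 17.8%, and with each called region counted once, also chosen afterwards, 93.6%, 84.2%, 67.0%, 25.3%, 62.5% and 25.3%. A -log10 q of at least 5 gave 68.6%, 34.5%, 64.4% and 33.6% for the last 4, and an enrichment of at least 2 gave 73.2%, 34.2%, 69.6% and 33.6%. One transcript per gene gave 89.1%, 76.2%, 33.9%, 72.7% and 33.6% for the last 5. On lncRNAs the last 5 were 90.6%, 72.9%, 23.6%, 69.7% and 23.5%, and on processed transcripts those of knockout IP in IgG and of knockout peaks in wild type were 85.2%, 52.2% and 52.5%.

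Median enrichments in wild type IP, wild type IgG, knockout IP and knockout IgG were 4.14, 4.09, 5.73 and 6.26 at a -log10 q of at least 5, 3.55, 3.53, 5.84 and 6.41 on lncRNAs, 4.08, 4.02, 4.59 and 4.98 on processed transcripts, and 3.72, 3.66, 5.53 and 5.98 with 1 transcript per gene. Median summit positions were 49.5%, 50.6% and 56.9% on lncRNAs in the first 3 lists, and 57.2%, 58.3%, 54.7% and 57.2% on processed transcripts in all 4. In knockout IP and IgG they were 56.7% and 58.5% at the stricter q, and 55.3% and 57.1% with 1 transcript per gene. Against the highest overlapping IgG peak instead of the nearest summit, the log2 ratio of IP over IgG was -0.106 in wild type and -0.234 in the knockout. That measure sets each sub-summit against the top of a region, so it lies lower by construction; the nearest-summit values of -0.0130 and -0.0568 were chosen after seeing the data. Against the highest overlapping peak, a stricter q gave -0.0936 and -0.218, 1 transcript per gene -0.135 and -0.247, and a 50% overlap -0.217 in the knockout.

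RNA calls depended on the number of samples and on the tool. The 2271 calls over all genes, and the 305 rises and 413 falls of genes with a peak, became 5476, 941 and 836 with the 4 libraries kept apart. The labels do not say that a replicate number marks a shared source. The correlation of same-numbered deviations (r = -0.0228) is 1 value for both numbers and says little, since the knockout pair differed by little more than counting noise, so the pairing was not used. The replicate block on 4 libraries gave 4983 calls, 820 rises and 768 falls. DESeq2 gave 1026, 135 and 225, and no filter on low counts gave 3513 calls and 715 rises. Leaving out 1 library gave 2077 to 7003 calls, 277 to 1284 rises and 383 to 1065 falls. Without a wild type library, with the knockout libraries apart, calls were 6761 and 7003, rises 1125 and 1284, and falls 1065 and 961. Of the 2271 calls, 1006 were shared with DESeq2. Among named genes EIF1 turned to 0.0530 without wild type replicate 2 and H2BC18 to -0.0949 without wild type replicate 1; neither had passed the test. SNHG6, SNHG9, ATP5ME and MMP11 lost their calls under at least 1 alternative. Peak lists pool their libraries, so no value there could be checked against replicate error, and peaks near the calling threshold rest on 51, 48, 20 and 16 steps of enrichment.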
